A study of Rattus norvegicus with 14 samples.

Results

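Integrins are the receptors by which cells hold on to the proteins around them. Each one pairs an α with a β subunit, and the pair sets the ligand, so that some pairs bind collagen, some bind laminin, some bind the RGD sequence of fibronectin and vitronectin, and those of leukocytes bind adhesion molecules on other cells. Laminins are the cross-shaped trimers of an α, a β and a γ chain from which basement membranes are built, and in an artery they lie under the endothelium and around each smooth muscle cell.

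The genes of both families were taken by symbol, as every gene named as an integrin α subunit, an integrin β subunit from 1 to 8 or a laminin α, β or γ chain. This gave 37 of the 19357 genes on the array, of which 18 encode integrin α subunits, 8 encode integrin β subunits and 11 encode laminin chains. Expression was measured in whole abdominal aortas of female Wistar outbred rats by hybridizing each animal's RNA to its own Rat Gene 1.1 ST array (Affymetrix). The ExpPE group (experimental preeclampsia, n = 5) was pregnant and received lipopolysaccharide (LPS) at 1 µg/kg in 2 ml saline over 1 h on day 14, and the aorta was taken on day 20 of pregnancy. The Pr group (healthy pregnant, n = 5) was treated the same way with saline alone. The NPr group (non-pregnant, n = 4) consisted of age-matched females that received saline. All animals had carried a cannula in the jugular vein since day 0. ExpPE is an induced model in otherwise healthy rats, and LPS-infused non-pregnant animals were not analysed here, so an effect of LPS outside pregnancy cannot be told apart from one that needs pregnancy.

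Values are log2 intensities, and differences are log2 differences between group means. The deposited data hold the same intensities in 2 tables whose labels disagree. In the second table the 5 ExpPE arrays carry the titles of the Pr group and the 5 Pr arrays those of the ExpPE group, while the 4 NPr arrays carry the same title in both. The groups below follow the column names of the first table, which also holds the authors' own comparisons, and under the other titles every ExpPE minus Pr difference would have the opposite sign and the comparisons of each with NPr would be exchanged. Some aortas also stood apart in content. ExpPE animals 1 and 2 and Pr animal 1 had the highest levels of 23 skeletal muscle fibre markers, at 3.35, 2.59 and 3.67 against -1.80 to 1.35 in the other 11 animals, as the mean of log2 intensities centred per gene. ExpPE animals 1 and 2 were also highest for 12 neuronal and chromaffin cell markers, at 4.01 and 2.74 against -1.29 to 1.16 elsewhere. All 11 smooth muscle markers and all 10 endothelial markers were above the background of the array by their mean over the animals. In whole tissue, fewer cells of a type and less RNA per cell cannot be told apart.

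To say which members were measured above background, sensory receptor genes (1186 genes) served as a set that an aorta should not express. Their mean log2 intensity had a median of 2.66 and a 95th percentile of 3.90, against a median of 5.62 over all genes. Of the 37 members, 33 had a mean above 3.90. The other 4 were Itga10 (mean 3.83), a collagen receptor of cartilage, Itgb6 (3.86), which pairs with αv in epithelia, Lama1 (3.69), the laminin chain of early embryos, and Lamb3 (3.88), a laminin chain of epithelia. Differences in Itga10, Lama1 and Lamb3 are close to what the array can resolve, as are those in Itgb6 among most animals. Itgb6 was above 3.90 in 5 arrays and reached 6.09 in ExpPE animal 1 and 6.16 in Pr animal 1.

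No integrin or laminin gene passed an adjusted p of 0.05 in any comparison (limma, Benjamini-Hochberg over all genes, 0 of 37 in each). The same rule called 0.0% of all genes for ExpPE vs. Pr, 0.0982% for ExpPE vs. NPr and 0.212% for Pr vs. NPr. At an unadjusted p under 0.05, 2 of 37 members were called in ExpPE vs. Pr (5.41%, against 8.48% of all genes), 1 of 37 in ExpPE vs. NPr (2.7%, against 7.61%) and 3 of 37 in Pr vs. NPr (8.11%, against 5.35%). With the threshold of the study, an unadjusted p under 0.05 and a fold change over 1.4, the counts were 1 of 37 in ExpPE vs. Pr (2.72% of all genes), 0 of 37 in ExpPE vs. NPr (3.13% of all genes) and 3 of 37 in Pr vs. NPr (3.41% of all genes). The median difference of the members was -0.03, 0.08 and 0.03 in the same comparisons, against 0.02, 0.02 and -0.02 over all genes. These shares lie near the background. Each p-value sets a group difference against the spread between animals within groups, pooled over the groups, and precision is limited by how few arrays there are.

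Leaving out 1 animal at a time moved the counts at the study threshold to between 0 and 3 for ExpPE vs. Pr, between 0 and 1 for ExpPE vs. NPr and between 2 and 4 for Pr vs. NPr. The share of all genes moved too, to between 1.74% and 5.7%, 1.86% and 6.23%, and 2.71% and 5.02% in that order. Beside Itgal in ExpPE vs. Pr, Itga5 reached this threshold without ExpPE animal 3 or Pr animal 1, Itgb4 without ExpPE animal 5, Itgb6 without Pr animal 1, Itga4 without Pr animal 2 and Itgam without Pr animal 5. In ExpPE vs. NPr, Itgam reached it without ExpPE animal 1, Pr animal 3 or Pr animal 5. In Pr vs. NPr, Itgal reached it without Pr animal 2, Pr animal 4 or NPr animal 1, Itga4 without Pr animal 2, Lamc3 without Pr animal 3 or NPr animal 2, and Itga6 without NPr animal 4.

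The array names carry a letter from A to E whose meaning is not stated, and it nearly follows the groups. The letters D and E hold only Pr animals, so letter and group cannot be told apart for Pr. The letter B alone holds 2 groups, ExpPE animals 1 and 2 and NPr animal 4. With the letter as a block, which leaves the comparison of these 3 animals, 15 of 37 members reached the study threshold in ExpPE vs. NPr, against 19.0% of all genes, and 2 passed an adjusted p of 0.05 (limma), against 2.87% of all genes. The 2 were Itga9, at 8.74 and 7.88 in ExpPE animals 1 and 2 and 10.49 in NPr animal 4, and Itgb8, at 6.97 and 6.74 in those ExpPE animals and 7.91 in that NPr animal. The ExpPE animals concerned are the pair with the highest neuronal and chromaffin cell markers, at 4.01 and 2.74 against -1.29 in NPr animal 4. Their smooth muscle marker level was -0.46 and -1.12, against 0.62 in NPr animal 4, the highest of all animals. Their skeletal muscle fibre marker level was 3.35 and 2.59, against -1.8 in NPr animal 4. The part of cell content in this comparison was not tested.

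**Figure D1:**
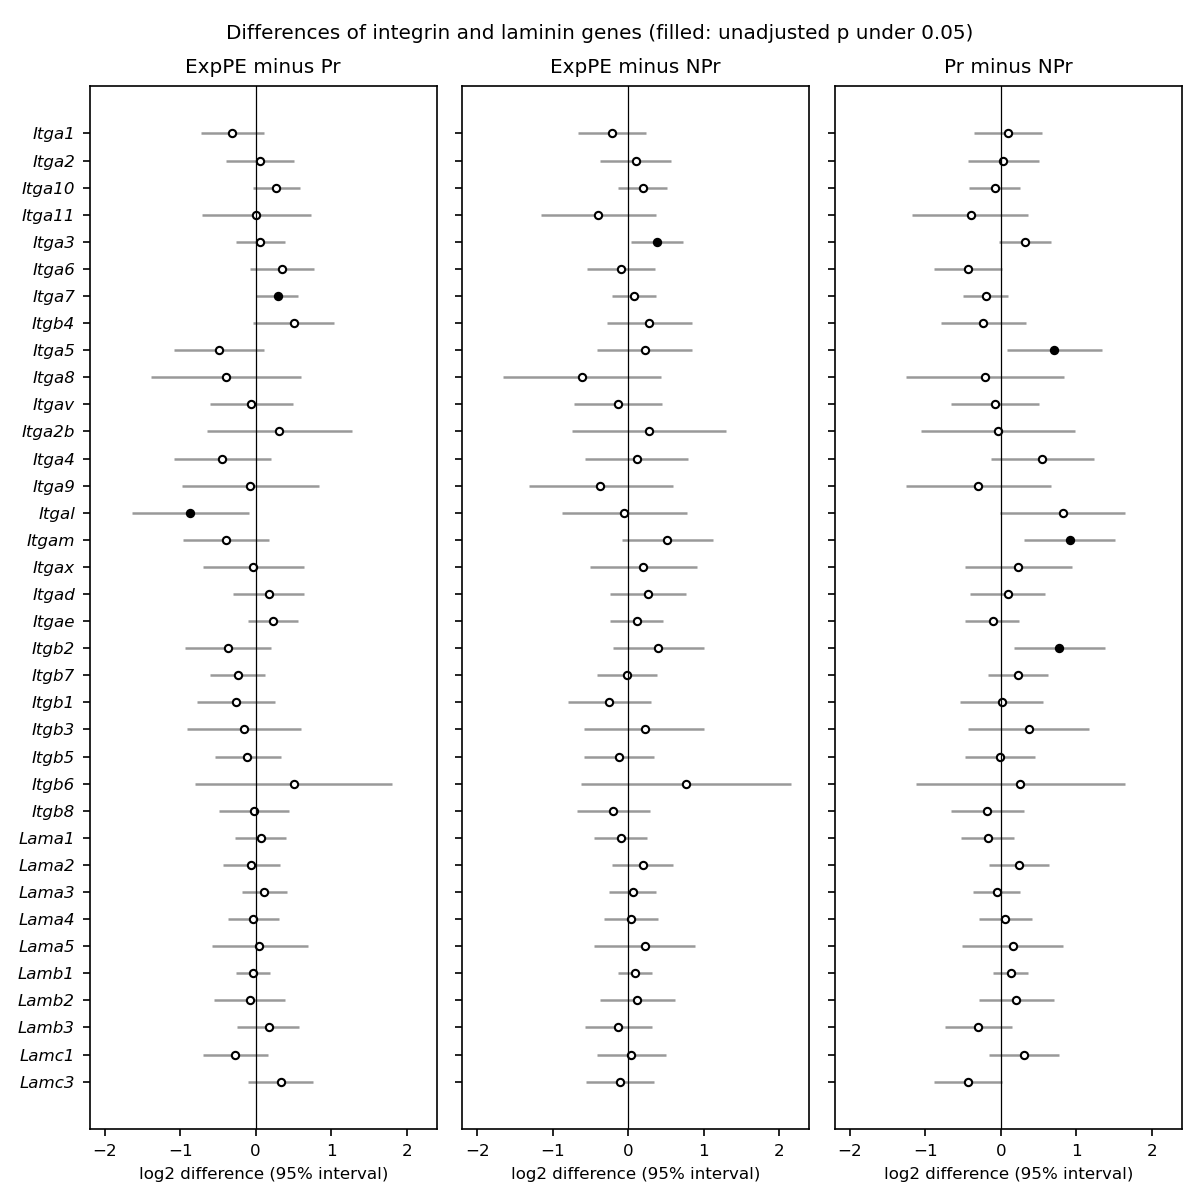
Log2 difference of 36 of the 37 genes (points) with its 95% interval (lines) in ExpPE minus Pr, ExpPE minus NPr and Pr minus NPr, with filled points for an unadjusted p under 0.05. Most intervals include 0, and the widest belong to Itgb6. The laminin chains lie between -0.44 (Lamc3, Pr minus NPr) and 0.33 (Lamc3, ExpPE minus Pr).

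The members that stood furthest from NPr in healthy pregnancy were leukocyte integrins. The β2 subunit Itgb2 (CD18) is the shared partner of the α subunits Itgal (LFA-1), Itgam (Mac-1, of macrophages and neutrophils), Itgax and Itgad. Itgam and Itgb2 were higher in Pr than in NPr at the study threshold, Itgal was lower in ExpPE than in Pr at that threshold, and none of these differences passed adjustment.

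Itgam measured 5.79, 6.62, 6.60, 6.37 and 6.22 in ExpPE animals 1 to 5, 6.70, 6.82, 7.60, 6.74 and 5.68 in Pr animals 1 to 5, and 5.72, 5.82, 5.83 and 5.82 in NPr animals 1 to 4. Of the Pr animals, 4 lay above every NPr animal and the other, Pr animal 5, lay below all of them, so the groups overlapped. The Pr minus NPr difference was 0.91 ± 0.28 (SE), a fold of 1.88, with an unadjusted p of 0.0056 and an adjusted p of 0.414 by limma. The ExpPE minus NPr difference was 0.52 ± 0.28 (adjusted p = 0.64, limma) and the ExpPE minus Pr difference was -0.39 ± 0.26 (adjusted p = 0.603, limma), which was -0.17 without Pr animal 3 and -0.65 without Pr animal 5. Without Pr animal 5 the Pr minus NPr difference was 1.17 and its adjusted p was 0.0342 (limma), and this was the only single animal whose removal brought any member past an adjusted p of 0.05 in these fits.

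Itgb2 measured 6.58, 7.60, 7.25, 7.34 and 7.10 in ExpPE animals, 7.60, 7.11, 8.67, 7.28 and 7.07 in Pr animals, and 7.02, 6.56, 6.76 and 6.75 in NPr animals. All 5 Pr animals were above all 4 NPr animals, with the closest values at 7.07 in Pr and 7.02 in NPr. Itgb2 was the only member whose groups did not overlap in any comparison, 1 of 37 in Pr vs. NPr against 2.71% of all genes, with 0 of 37 in ExpPE vs. Pr (1.13% of all genes) and 0 of 37 in ExpPE vs. NPr (2.07% of all genes). The Pr minus NPr difference was 0.77 ± 0.28, a fold of 1.71 (unadjusted p = 0.0158, adjusted p = 0.65, limma). Pr animal 3 had the highest Itgb2 of all, and without it the difference was 0.49 with an unadjusted p of 0.0247 by limma.

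Itgal measured 5.81, 6.71, 5.92, 5.75 and 6.34 in ExpPE animals, 6.90, 6.41, 8.57, 6.29 and 6.71 in Pr animals, and 6.74, 5.89, 5.79 and 6.22 in NPr animals. Pr animal 3 stood far above the rest, and Pr animal 1, at 6.90, also lay above every ExpPE and NPr animal. Pr animals 2, 4 and 5 shared the range of the 2 other groups. The ExpPE minus Pr difference was -0.87 ± 0.36, a fold of 0.549 (unadjusted p = 0.0317, adjusted p = 0.574, limma). The Pr minus NPr difference was 0.82 ± 0.39 (unadjusted p = 0.0526, adjusted p = 0.937, limma), and the ExpPE minus NPr difference was -0.05 ± 0.39. Without Pr animal 3 the ExpPE minus Pr difference was -0.47 and the Pr minus NPr difference was 0.42, with limma's unadjusted p at 0.0674 and 0.115 in that order. The call at the study threshold was also lost without ExpPE animal 1, 3 or 4, with the unadjusted p at 0.0639, 0.0597 and 0.0704 in that order.

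The remaining leukocyte integrins differed less. Itgax (CD11c), found on macrophages and dendritic cells, measured 4.58, 5.34, 5.67, 5.05 and 5.77 in ExpPE animals, 5.61, 4.82, 6.40, 4.99 and 4.73 in Pr animals, and 5.61, 5.09, 4.86 and 4.78 in NPr animals, again with Pr animal 3 on top. Itgad, a β2 partner of tissue macrophages, measured 4.23, 5.23, 4.49, 5.40 and 4.70 in ExpPE animals, 4.45, 4.40, 4.85, 4.73 and 4.77 in Pr animals, and 4.72, 4.42, 4.91 and 4.16 in NPr animals. In both genes the ranges of all 3 groups overlapped.

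Itgae (CD103), the partner of β7 on lymphocytes within epithelia, measured 4.18, 4.53, 4.09, 4.85 and 4.47 in ExpPE animals, 4.11, 4.15, 4.25, 4.10 and 4.37 in Pr animals, and 4.54, 4.24, 4.46 and 4.01 in NPr animals. Itgb7 measured 4.79, 5.52, 4.82, 5.23 and 5.36 in ExpPE animals, 5.60, 5.15, 5.57, 5.59 and 5.01 in Pr animals, and 5.29, 5.25, 5.17 and 4.94 in NPr animals. All 3 groups overlapped here too, and the smallest unadjusted p of these 4 genes in any comparison was 0.164 (Itgae, ExpPE vs. Pr, limma).

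**Figure D2:**
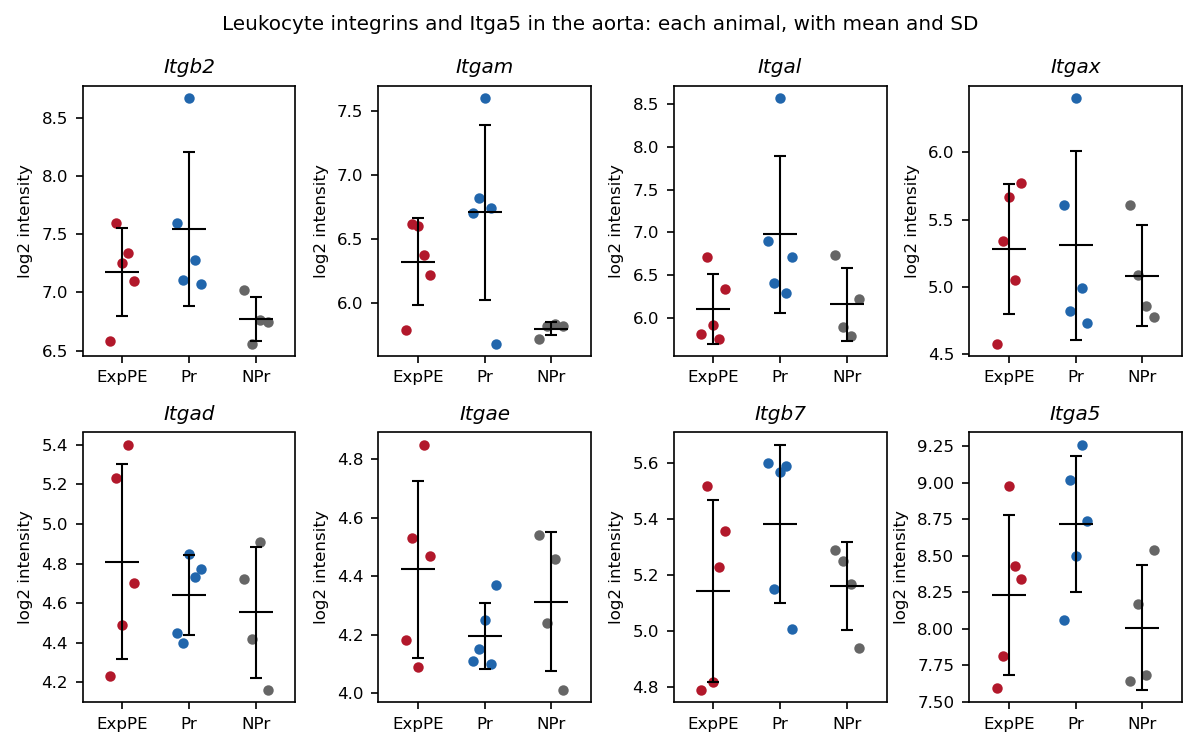
Log2 intensity of 7 leukocyte integrins and of Itga5 in each animal (points) of the ExpPE, Pr and NPr groups, with the mean and SD of each group (black). Itgb2 lies higher in every Pr animal than in every NPr animal, and the highest point of Itgb2, Itgam, Itgal and Itgax is Pr animal 3 in each case.

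Markers of leukocytes moved in part with these genes. The mean level of 16 leukocyte and macrophage markers, none of them an integrin, spanned -0.61 to 0.32 in ExpPE, -0.09 to 0.89 in Pr and -0.52 to -0.23 in NPr, with Pr animal 3 at 0.89. All 16 were above background, and all 16 were higher in Pr than in NPr (median difference 0.62). At the study threshold 10 of the 16 were higher, against 470 of all 19357 genes. At an unadjusted p under 0.05 there were 11 (limma), against 5.35% of all genes, and none of the 16 passed an adjusted p of 0.05. In ExpPE minus Pr all 16 were negative (median -0.37), and in ExpPE minus NPr all 16 were positive (median 0.24). For 11 T and NK cell markers the median Pr minus NPr difference was 0.29, and for 8 neutrophil markers it was 0.11. Of the 4 animals highest in Itgb2, 3 were among the 4 highest in the 16 leukocyte and macrophage markers. Of the 5 highest in each, 3 were shared. The part of cell content in the leukocyte integrin values was not tested.

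Promoters are shown for Itgam and Itga5, which were both higher in Pr than in NPr at the study threshold and are held in the promoter table from RefSeq (GRCr8). The 28 members in that table were searched over 250 bases before the gene start for GAGGAA on either strand, the core letters of the motif of PU.1, a factor of myeloid cells. It was present in 11 of 28 members (39.3%), against 23.3% of all 33469 promoters over the same length. Of the leukocyte integrins, Itgam and Itgae held it, Itgax and Itgb7 did not, and Itgb2, Itgal and Itgad had no promoter to search. Itga4 did not hold it either. The other matches were Itga5, Itga11, Itgav, Itgb1, Itgb6, Lama5, Lamb1, Lamb3 and Lamc1, so most were not leukocyte integrins. In the sequences, 5′ to 3′ in the direction of the gene, capitals mark GAGGAA or TTCCTC, its reverse complement. Itgam lies on the plus strand (chr1:192089342-192089591) and holds the letters in 2 places, and Itga5 lies on the minus strand (chr7:136381306-136381555) and holds them in 1 place.
Itgam: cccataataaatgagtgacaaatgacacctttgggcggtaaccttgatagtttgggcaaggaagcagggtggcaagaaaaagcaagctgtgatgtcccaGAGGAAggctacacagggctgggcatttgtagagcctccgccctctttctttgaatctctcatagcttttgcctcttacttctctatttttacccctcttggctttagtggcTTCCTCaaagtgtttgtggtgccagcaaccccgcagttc
Itga5: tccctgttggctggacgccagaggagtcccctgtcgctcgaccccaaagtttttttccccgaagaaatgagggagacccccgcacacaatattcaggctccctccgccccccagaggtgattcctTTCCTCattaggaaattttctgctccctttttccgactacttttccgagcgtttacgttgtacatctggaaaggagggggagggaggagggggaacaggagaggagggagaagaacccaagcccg
A match is a description of the letters and not of binding.

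Among the integrins that bind the RGD sequence, Itga5, the α subunit of the main fibronectin receptor, was higher in Pr than in NPr at the study threshold. It measured 7.59, 7.81, 8.98, 8.43 and 8.34 in ExpPE animals, 8.06, 9.02, 8.50, 9.26 and 8.74 in Pr animals, and 7.64, 8.17, 7.68 and 8.54 in NPr animals. Of the Pr animals, 3 lay above every NPr animal, and Pr animals 1 and 3 lay within the NPr range. The Pr minus NPr difference was 0.71 ± 0.29, a fold of 1.63 (unadjusted p = 0.0299, adjusted p = 0.833, limma). The ExpPE minus Pr difference was -0.49 ± 0.28 (adjusted p = 0.582, limma), and -0.13 without ExpPE animals 1 and 2. The call at the study threshold was lost without Pr animal 2, Pr animal 4, NPr animal 1 or NPr animal 3, with limma's unadjusted p at 0.0651, 0.0776, 0.0913 and 0.0865 in that order.

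Itga8, a receptor of contractile smooth muscle cells, varied more between animals of a group than between groups. It measured 10.74, 8.96, 11.85, 11.60 and 11.76 in ExpPE animals, 10.50, 11.60, 11.63, 11.55 and 11.61 in Pr animals, and 11.25, 11.72, 11.23 and 12.17 in NPr animals. ExpPE animals 1 and 2 and Pr animal 1 were the lowest, and ExpPE animal 2 stood far below the rest. The ExpPE minus NPr difference was -0.61 ± 0.49 (adjusted p = 0.697, limma), and it was -0.10 without ExpPE animal 2 and 0.15 without ExpPE animals 1 and 2. The 5 animals lowest in Itga8 were the same 5 that were lowest in the level of 11 smooth muscle markers, which was -1.12 in ExpPE animal 2.

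Other RGD receptors gave small differences. Itgav, the αv subunit that pairs with β1, β3, β5, β6 and β8, differed by -0.06 ± 0.26 in ExpPE minus Pr, by -0.13 ± 0.27 in ExpPE minus NPr and by -0.08 ± 0.27 in Pr minus NPr. Its partners Itgb3, Itgb5 and Itgb8 had no unadjusted p under 0.05 in any comparison of the unweighted fit of all animals. Itgb3 reached the study threshold in ExpPE vs. NPr and in Pr vs. NPr with weights for array quality. It also did so in ExpPE vs. NPr without ExpPE animals 1 and 2, and without these and Pr animal 1. The widely shared β1 subunit Itgb1 spanned 10.24 to 11.43 in ExpPE, 10.72 to 11.43 in Pr and 10.78 to 11.71 in NPr, with a Pr minus NPr difference of 0.01 ± 0.26.

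The fibrinogen receptor of platelets is made of Itga2b and Itgb3. Itga2b measured 4.69 to 7.38 in ExpPE, 5.22 to 6.61 in Pr and 5.39 to 6.84 in NPr, so each group spanned more than the differences between them (0.31 ± 0.45 in ExpPE minus Pr). The 5 animals highest in Itga2b were also the 5 highest in the level of 6 platelet and megakaryocyte markers. That level was 1.31 in ExpPE animal 5 and -1.0 in ExpPE animal 1. Of the 4 highest in each, 3 were shared. The order was similar for 9 erythroid cell markers, at 1.8 in ExpPE animal 5, 1.33 in ExpPE animal 3, 1.12 in Pr animal 1 and 0.74 in NPr animal 1. Their level was 0.55 in ExpPE animal 4, 0.54 in Pr animal 4 and -1.12 in ExpPE animal 1. Itgb6 measured 6.09, 4.43, 3.37, 4.25 and 3.13 in ExpPE animals, 6.16, 3.16, 3.11, 3.23 and 3.07 in Pr animals, and 3.67, 3.06, 4.03 and 3.21 in NPr animals. It was high in ExpPE animal 1 and Pr animal 1 and near background in most others. Its 5 highest animals were the 5 highest in the skeletal muscle fibre markers, and 3 of the 4 highest were shared. These overlaps were noticed in the values, are given as a description, and the part of cell content in them was not tested.

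**Figure D3:**
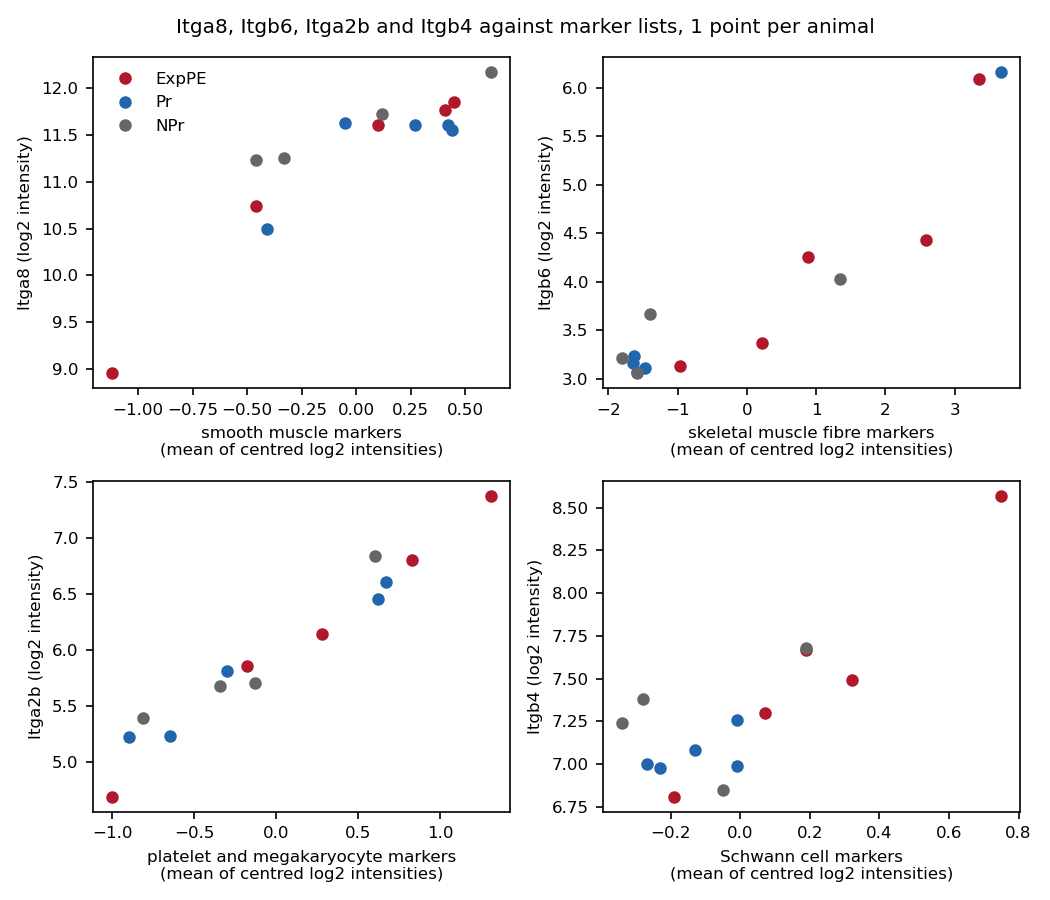
Log2 intensity of Itga8, Itgb6, Itga2b and Itgb4 (vertical axes) against the mean centred log2 level of smooth muscle, skeletal muscle fibre, platelet and Schwann cell markers (horizontal axes), 1 point per animal of the ExpPE, Pr and NPr groups. ExpPE animal 2 lies lowest for Itga8 at 8.96 and highest for Itgb4 at 8.57, and Itgb6 is highest in ExpPE animal 1 and Pr animal 1.

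The laminin receptors comprise Itga3 and Itga6 with β1, Itga7 of muscle cells with β1, and Itga6 with Itgb4, the pair of hemidesmosomes and of Schwann cells. Itga3 was the only member with an unadjusted p under 0.05 in ExpPE vs. NPr. It measured 6.47, 6.43, 6.47, 6.54 and 6.11 in ExpPE animals, 6.25, 6.54, 6.41, 6.68 and 5.84 in Pr animals, and 5.78, 6.07, 6.14 and 6.12 in NPr animals. Of the ExpPE animals, 4 lay above all NPr animals and ExpPE animal 5 lay within their range. The ExpPE minus NPr difference was 0.38 ± 0.16 (unadjusted p = 0.0317, adjusted p = 0.64, limma), and the Pr minus NPr difference was 0.32 ± 0.16 (adjusted p = 0.973, limma). The first was above an unadjusted p of 0.05 without ExpPE animal 1, 3 or 4 (0.0537, 0.0564 and 0.0653) or without NPr animal 1 (0.104).

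Itga7 measured 8.35, 8.17, 8.21, 8.13 and 8.26 in ExpPE animals, 7.69, 7.87, 7.72, 8.08 and 8.32 in Pr animals, and 8.0, 8.07, 8.06 and 8.44 in NPr animals. The ExpPE animals lay close together, above 4 of the 5 Pr animals. The ExpPE minus Pr difference was 0.29 ± 0.13 (unadjusted p = 0.0426, adjusted p = 0.574, limma). Leaving out any 1 of ExpPE animals 1, 3 and 5, Pr animals 1, 2 and 3, or NPr animal 2, which enters only the shared estimate of the spread, moved the unadjusted p above 0.05, to at most 0.11 (without Pr animal 1).

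Itgb4 measured 7.49, 8.57, 7.67, 7.30 and 6.81 in ExpPE animals, 6.99, 7.08, 6.98, 7.0 and 7.26 in Pr animals, and 6.85, 7.38, 7.68 and 7.24 in NPr animals. ExpPE animal 2 was the highest, and 4 ExpPE animals lay above all Pr animals. The ExpPE minus Pr difference was 0.51 ± 0.25 (unadjusted p = 0.0609, adjusted p = 0.575, limma). It was 0.26 without ExpPE animal 2 (unadjusted p = 0.182, limma), 0.27 with weights for array quality and 0.20 without ExpPE animals 1 and 2. The 4 animals highest in Itgb4 were the 4 highest in the level of 12 Schwann cell markers, and 4 of the 5 highest were shared. The Schwann cell marker level was 0.75 in ExpPE animal 2. It spanned -0.19 to 0.75 in ExpPE, -0.27 to -0.01 in Pr and -0.34 to 0.19 in NPr. Of these 12 markers, 4 were higher in ExpPE than in Pr at the study threshold, against 333 of all 19357 genes. The part of these markers in the Itgb4 values was not tested.

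Itga6 measured 7.37, 7.74, 7.01, 6.75 and 7.02 in ExpPE animals, 6.83, 6.74, 6.56, 7.04 and 6.99 in Pr animals, and 7.59, 7.13, 7.62 and 6.73 in NPr animals. Of the NPr animals, 3 lay above all Pr animals and NPr animal 4 lay among them. The Pr minus NPr difference was -0.44 ± 0.21 (unadjusted p = 0.058, adjusted p = 0.944, limma), and the ExpPE minus Pr difference was 0.35 ± 0.20 (adjusted p = 0.585, limma), which was 0.21 without ExpPE animal 2.

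Of the collagen receptors, Itga1 of smooth muscle cells, Itga2 of platelets and epithelia and Itga11 of fibroblasts had no unadjusted p under 0.05 in any comparison. Itga1 spanned 8.27 to 9.04 in ExpPE, 8.29 to 9.29 in Pr and 8.62 to 9.23 in NPr. Itga11 had wider ranges, at 7.68 to 9.01 in ExpPE, 7.57 to 8.92 in Pr and 7.96 to 9.31 in NPr. Itga10, under the background limit on average, measured 3.42, 4.26, 4.04, 4.20 and 3.97 in ExpPE animals, 3.72, 3.91, 3.59, 3.60 and 3.71 in Pr animals, and 3.84, 3.82, 3.77 and 3.73 in NPr animals. Its ExpPE minus Pr difference was 0.27 ± 0.15 (unadjusted p = 0.0812, adjusted p = 0.575, limma). Without ExpPE animal 1 it was 0.41 (unadjusted p = 0.00248, adjusted p = 0.412, limma), and after a second quantile normalization it was 0.10 (unadjusted p = 0.43, limma).

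Itga4, a leukocyte receptor for Vcam1 and fibronectin, and Itga9, its relative on smooth muscle cells, make up the last group of α subunits. Itga4 measured 6.10, 7.01, 6.20, 5.95 and 6.43 in ExpPE animals, 7.08, 5.93, 7.82, 6.22 and 6.85 in Pr animals, and 6.56, 6.07, 6.15 and 6.14 in NPr animals, with Pr animal 3 on top once more. Its Pr minus NPr difference was 0.55 ± 0.32 (unadjusted p = 0.104, limma), and 0.29 without Pr animal 3. Itga9 was lowest in ExpPE animal 2 at 7.88, Pr animal 1 at 8.53 and ExpPE animal 1 at 8.74, and highest in NPr animal 4 at 10.49, which is the pattern of Itga8.

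**Figure D4:**
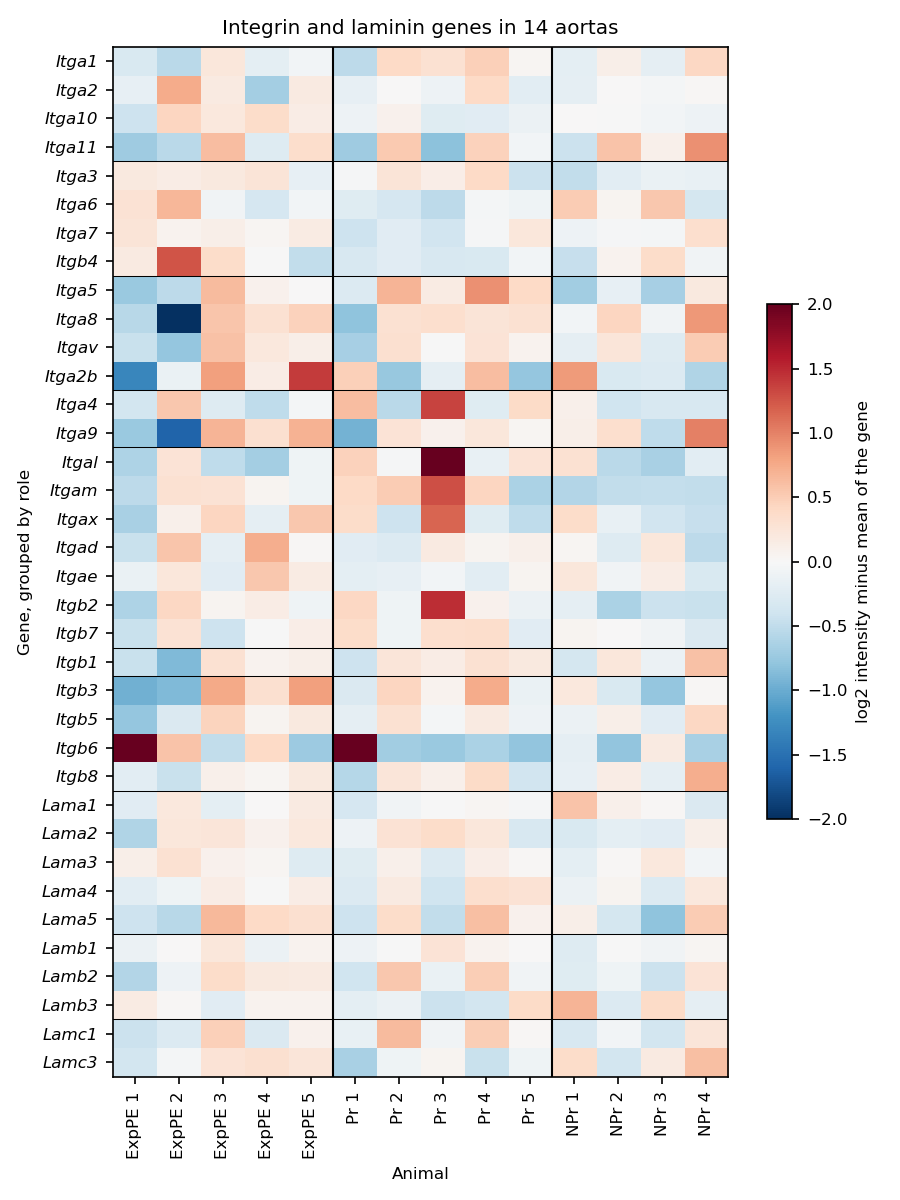
Log2 intensity of 36 of the 37 genes (rows, grouped by role) minus the mean of the gene over 14 animals (columns, in the order ExpPE, Pr and NPr), with red for higher and blue for lower values and the colours capped at 2 and -2. Itga8 and Itga9 are low in ExpPE animals 1 and 2 and Pr animal 1, the leukocyte integrins Itgal, Itgam, Itgax and Itgb2 are high in Pr animal 3, and the laminin rows are pale.

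The laminin chains differed little between groups. None of the 11 had an unadjusted p under 0.05 in any comparison (limma), and their median differences were 0.05 in ExpPE minus Pr, 0.06 in ExpPE minus NPr and 0.06 in Pr minus NPr. The differences ranged from -0.27 (Lamc1) to 0.33 (Lamc3) in ExpPE minus Pr, from -0.13 (Lamb3) to 0.22 (Lama5) in ExpPE minus NPr and from -0.44 (Lamc3) to 0.31 (Lamc1) in Pr minus NPr. The 95% intervals of all 11 stayed within -0.70 and 0.76 in ExpPE minus Pr, -0.57 and 0.89 in ExpPE minus NPr, and -0.89 and 0.83 in Pr minus NPr. Differences larger than these bounds lay outside the intervals.

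The chains of the vascular laminins gave small differences. Lama4, the endothelial α chain of laminin-411, differed by -0.03 ± 0.16 in ExpPE minus Pr, by 0.03 ± 0.16 in ExpPE minus NPr and by 0.06 ± 0.16 in Pr minus NPr. Lamb1, a β chain of laminin-411 and laminin-111, ranged only over 8.45 to 8.79 in ExpPE, 8.47 to 8.84 in Pr and 8.31 to 8.60 in NPr. Its ExpPE minus Pr difference was -0.03, with a 95% interval from -0.26 to 0.19. Lamc1, the γ chain of most laminins, differed by -0.27 ± 0.20 in ExpPE minus Pr and by 0.31 ± 0.21 in Pr minus NPr.

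Lama5, the chain of the later endothelial basement membrane, varied more, at 6.58 to 7.79 in ExpPE, 6.64 to 7.74 in Pr and 6.33 to 7.64 in NPr. Lama2, of muscle and Schwann cell basement membranes, differed by -0.06 ± 0.18 in ExpPE minus Pr and by 0.24 ± 0.19 in Pr minus NPr. Lamc3 had the smallest p of the laminins. It measured 4.75, 5.08, 5.39, 5.45 and 5.37 in ExpPE animals, 4.48, 5.03, 5.18, 4.68 and 5.03 in Pr animals, and 5.49, 4.76, 5.31 and 5.72 in NPr animals, and 3 of the NPr animals lay above all Pr animals. Its Pr minus NPr difference was -0.44 ± 0.21 (unadjusted p = 0.0582, adjusted p = 0.944, limma), and -0.16 with weights for array quality.

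The spread between animals of a group was wider for these genes than for most. The within-group SD had a median of 0.37 over the 37 members, against 0.26 over all genes. Itgb6 (SD 1.10), Itga8 (0.82) and Itga2b (0.81) were at the 99.0th, 97.5th and 97.3th percentile of all genes, and Lamb1 (0.14) was at the 7.25th.

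Whether the chains of a receptor or a laminin varied together was examined in 22 chosen pairs of subunits, on deviations from the group means over 14 animals. The p-values came from permutation within groups (100000 permutations, two-sided) with adjustment over the 22 pairs. The 22 do not cover every pair that the members can form. Pearson's r was above 0 in 21 pairs (95.5%, median r 0.74), and 12 pairs had an adjusted permutation p under 0.05, all with r of at least 0.716 (54.5% of the pairs). Of the 644 other pairs of members, 56.4% had r above 0 and 10.2% had r of at least 0.716 (median r 0.09), and of all 187337046 pairs of genes on the array 51.0% and 3.12% did (median r 0.01). These shares are a description over the same animals, with no test of their difference. The limit of 0.716 was the lowest r of the 12 pairs, so 54.5% is the share of the pairs that passed. Some of the 644 other pairs, such as Itga6 and Itgb1, can also form a receptor. The closest pair was Itga8 and Itgb1 (r = 0.928, adjusted permutation p = 0.00106, rho = 0.886, adjusted permutation p = 0.00447), and without the 2 animals farthest from the median of Itga8 r was 0.948. Lamb2 and Lamc1 followed (r = 0.888, adjusted permutation p = 0.00106, rho = 0.886, adjusted permutation p = 0.00238, r = 0.819 without the 2 farthest animals). Itga5 and Itgb1 (r = 0.879, rho = 0.899) and Itga1 and Itgb1 (r = 0.876, rho = 0.877) had an adjusted permutation p of 0.00106 for r and of 0.000513 for rho.

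Of the αv pairs, Itgav and Itgb8 gave r = 0.823 (adjusted permutation p = 0.00106, rho = 0.855), Itgav and Itgb5 gave r = 0.825 (adjusted permutation p = 0.0059, rho = 0.934), and Itgav and Itgb3 gave r = 0.785 (adjusted permutation p = 0.0147, rho = 0.754). Of the β2 pairs, Itgal and Itgb2 gave r = 0.861 (adjusted permutation p = 0.0125) and rho = 0.64 (adjusted permutation p = 0.0516), and r was 0.524 without Pr animals 1 and 3, so the value rests in part on those animals. Itgax and Itgb2 (r = 0.826, rho = 0.793) and Itgam and Itgb2 (r = 0.795, rho = 0.609) gave 0.759 and 0.695 without the 2 farthest animals. Lama5 and Lamc1 (r = 0.769, rho = 0.758) and Lama2 and Lamb2 (r = 0.716, rho = 0.613) were the remaining pairs under 0.05.

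Pairs that did not pass included the platelet pair Itga2b and Itgb3 (r = 0.676, adjusted permutation p = 0.0501, rho = 0.701) and Itga6 and Itgb4 (r = 0.493, adjusted permutation p = 0.194, rho = 0.332). Of the 22 pairs examined, only Itga4 and Itgb1 were below 0 (r = -0.454, adjusted permutation p = 0.122, rho = -0.508). Other receptors named above, such as Itga6 with Itgb1 or Itgav with Itgb6, were not among the 22. The epithelial laminin chains Lama3 and Lamb3 gave r = 0.0173 (rho = 0.165). The animals share their cell content across all pairs, and the smooth muscle markers were lowest in ExpPE animals 1 and 2, Pr animal 1 and NPr animals 1 and 3, at -0.46, -1.12, -0.41, -0.33 and -0.46 in that order. Their part in the correlations was not tested. The rows named by the letter in the array names hold at most 3 animals each, too few for a correlation within a row.

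**Figure D5:**
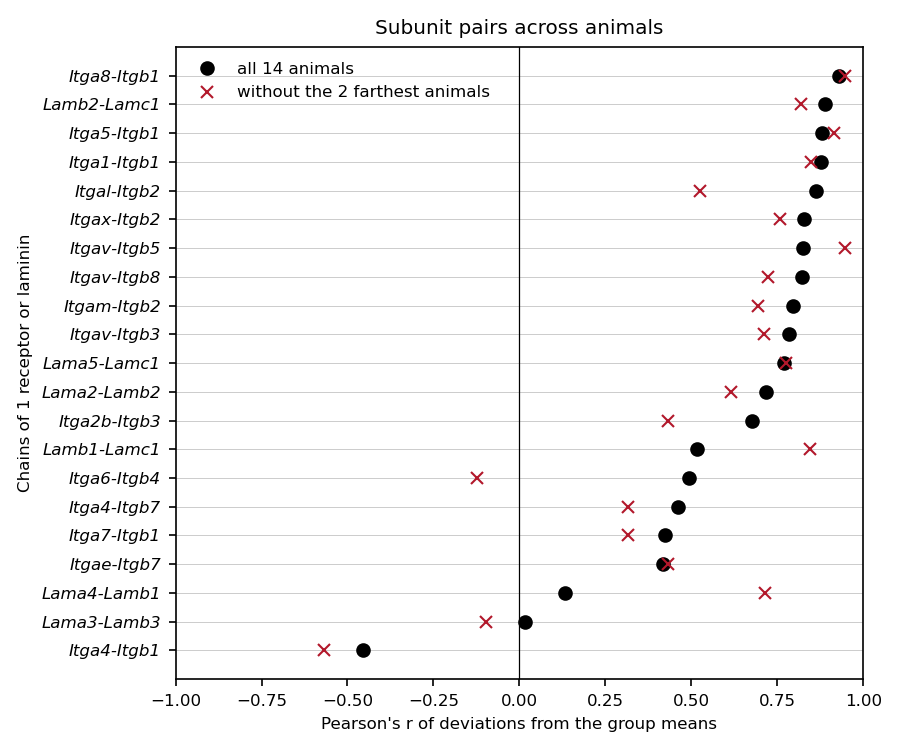
Pearson's r of 21 of the 22 subunit pairs across 14 animals, on deviations from the group means (black points), and again without the 2 animals farthest from the median of the first gene (red crosses). Itga8 and Itgb1 have the highest r at 0.928. Itga4 and Itgb1 are the only pair drawn with r below 0, at -0.454, and the cross of Itga6 and Itgb4 lies below 0.

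Around the receptors, 28 genes of integrin adaptors and focal adhesions gave 0 calls at an adjusted p under 0.05 in any comparison (limma). At an unadjusted p under 0.05 there was 1 of 28 for ExpPE vs. Pr, 0 for ExpPE vs. NPr and 2 for Pr vs. NPr. Over all genes these shares were 8.48%, 7.61% and 5.35%. The median differences of the 28 genes were -0.12, -0.11 and 0.00. The only one at the study threshold was Fermt3, the kindlin of blood cells, which measured 5.36, 6.84, 6.71, 6.28 and 6.52 in ExpPE animals, 6.47, 6.36, 6.95, 6.56 and 6.13 in Pr animals, and 6.06, 5.94, 5.88 and 5.93 in NPr animals. The lowest Pr animal was above the highest NPr animal, with a Pr minus NPr difference of 0.54 ± 0.25 (unadjusted p = 0.0451, adjusted p = 0.917, limma). Parvg, a parvin of leukocytes, had an ExpPE minus Pr difference of -0.46 ± 0.20 (unadjusted p = 0.0369, adjusted p = 0.574, limma).

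Of 21 basement membrane partners of laminin, 0 passed an adjusted p of 0.05 or the study threshold in any comparison (limma). Against 8.48%, 7.61% and 5.35% of all genes at an unadjusted p under 0.05, there were 1, 0 and 1 of the 21 in the same order. These were Fras1, which links epithelia to their basement membrane, with an ExpPE minus Pr difference of 0.41 ± 0.16 (unadjusted p = 0.0199, limma) at a mean of 4.34 in ExpPE and 3.93 in Pr, and the laminin receptor dystroglycan, Dag1. Dag1 measured 9.44, 9.57, 9.35, 9.59 and 9.34 in Pr animals and 9.78, 9.56, 9.92 and 9.67 in NPr animals, with a Pr minus NPr difference of -0.28 ± 0.12 (unadjusted p = 0.0332, adjusted p = 0.861, limma).

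Of 25 integrin ligands other than laminin and collagen, 0 passed an adjusted p of 0.05 (limma, with 2, 1 and 0 at an unadjusted p under 0.05). Over all genes the shares at that unadjusted p were 8.48%, 7.61% and 5.35%. Vcam1, the endothelial ligand of α4 integrins, measured 7.95, 8.11, 9.55, 9.24 and 8.73 in ExpPE animals, 8.52, 8.62, 10.59, 8.92 and 9.23 in Pr animals, and 9.12, 10.31, 9.36 and 9.97 in NPr animals. ExpPE animals 1 and 2 were the lowest of all, and the ExpPE minus NPr difference was -0.98 ± 0.42 (unadjusted p = 0.0364, adjusted p = 0.64, limma). Cdh1, the epithelial cadherin bound by αE integrin, had an ExpPE minus Pr difference of 0.50 ± 0.17 (unadjusted p = 0.0114, adjusted p = 0.574, limma), with 5.33, 4.95, 5.01, 4.71 and 4.49 in ExpPE animals and 4.03, 4.36, 4.61, 4.30 and 4.66 in Pr animals. Vcam1 and Cdh1 were the only ligands at the study threshold in any comparison. Icam1, the ligand of LFA-1 and Mac-1, was highest in Pr animal 3 at 9.20, the animal with the highest β2 integrins, and its Pr minus NPr difference was 0.46 ± 0.28 (unadjusted p = 0.128, limma).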

How the data were processed

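The intensities were deposited by the authors on the linear scale, after robust multichip averaging (RMA, version not given in the sources used here) with quantile normalization in MADMAX, under an annotation that joins all probes of a gene. Another deposited column gave the number of probes (23 to 80 per gene described). Columns with the authors' own fold changes, p-values and q-values were not used, and the number of unused per-animal columns was 0.

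Log2 intensities of 19357 genes entered, unfiltered, 1 limma fit (version 3.58.1, R 4.3.3) of group means over 14 arrays, with an intensity trend in the prior variance and Benjamini-Hochberg adjustment over all genes. The code was tested on simulated data. The study's methods call its test paired and name no pairing variable, so no pairs were used. Pair correlations were computed in Python 3.11.15.

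One member entered the counts and is not reported here by itself or in its subunit pair. The members and gene lists were chosen with earlier results of these data known. Values of every animal are given for members with an adjusted p under 0.05, the 4 with the smallest p in each comparison, members at the study threshold and leukocyte integrins above background, and up to 4 partner genes per list and comparison could be named. Itga4, Itga6, Itgb6 and Lamc3 were added after their values were seen. Alternatives covered the prior variance, the samples fitted, array weights, normalization, an intensity filter, the other table, the replicate block, the array letter and each animal left out. Leaving out ExpPE animals 1 and 2 and Pr animal 1 together was chosen after the data were seen.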

Additional observations from a re-analysis of the deposited data

Results flagged for a closer look

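In the members shown by animal, 51 groups were examined for a single animal far from the rest of its group, and 7 were found. Chance alone gives about 1 in 20 groups where genes are independent and chosen beforehand. These genes share the same animals, and Itga4 and Itgb6 were added after their values were seen. The count of 7 can therefore not be set against that rate. Itgal in Pr animal 3 was 8.57, with the next Pr animal at 6.90. Itga8 in Pr animal 1 was 10.50, with the next at 11.55. Itga3 in ExpPE animal 5 was 6.11, with the next at 6.43. Itgb6 in Pr animal 1 was 6.16, with the next at 3.23. Itga4 in NPr animal 1 was 6.56, with the next at 6.15. Itga7 in NPr animal 4 was 8.44, with the next at 8.07. Itgam in NPr animal 1 was 5.72, with the next at 5.82, in a group whose 4 values lay close together.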

How the results depend on the processing

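No member passed an adjusted p of 0.05 in limma under any setting, except Itga9 and Itgb8 in ExpPE vs. NPr with the array letter as a block (2 members) and Itgam in Pr vs. NPr without Pr animal 5, so that leaving out 1 animal gave 0 to 1. The counts at the study threshold were less stable. Percentages in brackets are the share of all genes under the same setting. For ExpPE vs. Pr (1 member) the count was 0 with weights for array quality (2.7%) and 2 after a second quantile normalization (2.0%). It was 2 in the other table with a replicate block (2.83%) and 3 without ExpPE animals 1 and 2 (2.42%). Those 3 were Itgal, Itga2b and Lamc3. Leaving out 1 animal gave 0 to 3 (1.74% to 5.7%). For ExpPE vs. NPr (0 members) it was 1 with only these groups in the fit, 1 with array weights, 3 with the other table's titles, 3 with these titles and a replicate block, 15 with the array letter as a block, 1 without ExpPE animals 1 and 2, 2 without these and Pr animal 1, and 0 to 1 with 1 animal left out. For Pr vs. NPr (3 members) it was 5 with array weights (5.28%) and 0 with the other table's titles (3.13%). With these titles and a replicate block it was 2 (4.3%), Itgam and Itgb6. Those titles exchange ExpPE and Pr, which by construction reversed the ExpPE minus Pr differences, with and without the replicate block, to 0.87 for Itgal, -0.29 for Itga7, -0.51 for Itgb4, -0.27 for Itga10, 0.39 for Itgam and 0.37 for Itgb2. They gave -0.05 for Itgal in Pr minus NPr and 0.82 in ExpPE minus NPr, again with and without the block. The small ExpPE minus NPr difference of Itgal also changed sign, to 0.10 with array weights and 0.04 with the array letter, and leaving out 1 animal gave -0.20 to 0.14. Itga8 in ExpPE minus NPr was 0.15 without ExpPE animals 1 and 2, and 0.15 without these and Pr animal 1. Without the 2 farthest animals r was -0.122 for Itga6 and Itgb4 and -0.0968 for Lama3 and Lamb3. The other causes were not tested. Correlations of same-numbered animals of the other table lay between -0.398 and 0.395. Animals with different numbers were not compared, so these values cannot tell whether the numbers pair the animals. The array letter gave no value in comparisons with Pr, and the filter on intensity left 25 of 37 members. Signals near 3.90 limit what can be said of Itga10, Itgb6, Lama1 and Lamb3.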
